A study of Mus musculus with 6 samples.

Results

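A set of 10 genes of the Wnt pathway, the receptors Fzd4 and Fzd7, the co-receptors Lrp5, Lrp6 and Ryk, and the intracellular members Ctnnb1, Axin2, Tcf7, Tcf7l2 and Lef1, were followed in long-term hematopoietic stem cells (LT-HSCs) of mice given carnosine or saline. They were taken by gene name, and all 10 were found among the 55487 genes of the deposited table. LT-HSCs are the bone marrow cells that sustain every blood lineage. They came from wild-type mice that were not irradiated, sorted by a gate that keeps cells carrying Sca-1 and c-Kit and drops those carrying lineage markers, Flk2 or CD34. Bulk RNA sequencing gave 3 libraries from mice treated with carnosine (beta-alanyl-histidine, a dipeptide found in muscle and brain), and 3 from mice treated with saline. No dose or duration of carnosine is given in the sources used here, and no age or sex of the mice. Nor do the labels say that the libraries of a group came from separate mice, so the p-values measure only the spread between these libraries, which may be technical.

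Wnt proteins are secreted ligands that bind a Frizzled receptor together with the co-receptor LRP5 or LRP6. Without a ligand, a complex built on AXIN and APC lets the kinase GSK3 mark beta-catenin, the product of Ctnnb1, for destruction. With a ligand, beta-catenin accumulates, enters the nucleus and joins the DNA-binding factors TCF and LEF at target genes, Axin2 among them. RYK belongs to receptor branches that do not need beta-catenin. In blood-forming stem cells the strength of Wnt signalling is known to bear on self-renewal, and TCF1 (Tcf7) and LEF1 are best known for guiding early T and B lymphocytes.

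The regions just before the annotated starts of 4 members are shown first, because Fzd4 and Lef1 were the members with the largest differences, Fzd7 is the Frizzled set beside Fzd4 here, and Axin2 is the feedback target of the pathway. Each is the 250 bases before a RefSeq transcription start on GRCm38.p6, plus strand, 5′ to 3′. The positions are chr7:89404116-89404365 for Fzd4, chr1:59481897-59482146 for Fzd7, chr11:108920099-108920348 for Axin2 and chr3:131110047-131110296 for Lef1, the most upstream of its 4 RefSeq windows. Capitals mark the letters searched for on both strands, which are the GC box (GGGCGG), the CCAAT box, and the TCF/LEF letters in any of 4 spellings (CTTTGAT, or with another ending CTTTGAA, or CTTTGTT, or else CTTTGTA). Where GC boxes lie next to each other or overlap, their capitals run together.
Fzd4: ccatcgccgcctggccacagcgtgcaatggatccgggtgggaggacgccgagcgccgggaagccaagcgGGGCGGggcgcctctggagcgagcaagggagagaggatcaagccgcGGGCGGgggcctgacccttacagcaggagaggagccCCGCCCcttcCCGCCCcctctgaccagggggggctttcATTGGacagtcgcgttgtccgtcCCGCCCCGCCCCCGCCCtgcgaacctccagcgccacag
Fzd7: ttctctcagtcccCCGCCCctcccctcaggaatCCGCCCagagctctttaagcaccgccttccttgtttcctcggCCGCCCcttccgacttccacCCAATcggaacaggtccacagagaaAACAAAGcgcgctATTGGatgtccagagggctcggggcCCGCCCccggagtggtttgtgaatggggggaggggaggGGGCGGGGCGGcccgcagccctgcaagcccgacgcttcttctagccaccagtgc
Axin2: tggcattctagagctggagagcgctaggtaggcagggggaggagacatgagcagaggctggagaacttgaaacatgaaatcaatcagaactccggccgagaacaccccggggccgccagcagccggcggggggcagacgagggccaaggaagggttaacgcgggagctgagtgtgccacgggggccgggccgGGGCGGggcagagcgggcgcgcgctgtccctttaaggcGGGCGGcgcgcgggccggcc
Lef1: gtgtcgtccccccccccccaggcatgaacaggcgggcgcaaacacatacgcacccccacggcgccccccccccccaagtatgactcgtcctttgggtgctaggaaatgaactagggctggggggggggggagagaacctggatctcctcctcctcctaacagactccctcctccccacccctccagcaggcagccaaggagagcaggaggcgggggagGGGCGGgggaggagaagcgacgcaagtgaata
The Fzd4 stretch held 7 GC boxes and 1 CCAAT box and was 72.8% G and C, against a median of 52.4% over all 32851 RefSeq windows of this length. Fzd7 held 6 GC boxes, 2 CCAAT boxes and 1 TCF/LEF spelling, the run AACAAAG that starts 130 bases before the transcription start. Axin2 held 2 GC boxes and Lef1 held 1, and neither held a TCF/LEF spelling in the stretch shown. Over all windows, GC boxes occurred in 32.7%, CCAAT boxes in 33.8% and any of the 4 TCF/LEF spellings in 14.8%. Windows were listed for 8 of the 10 members, 14 windows in all, and 3 of these held a TCF/LEF spelling. These matches describe letters only.

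The libraries held 10442112 to 13251332 counts in the carnosine group and 10304539 to 13210166 in the saline group. Genes of the sorting gate and of stem cells were read in every library (12 of 12 markers, summed to 1136 to 1286 counts per library total adjusted with TMM factors, CPM, in carnosine and 1152 to 1185 CPM in saline). Of these 12, Mecom rose (72.7 CPM in carnosine, 63.7 CPM in saline) and Gfi1b fell (7.30 CPM in carnosine, 15.0 CPM in saline). Rose and fell here mean called by the edgeR test given below, which called 9.51% of all genes tested higher and 8.39% lower in carnosine. Hlf, which was not called, had 361 CPM in carnosine replicate 1 and 205 to 222 CPM in the other libraries. Flt3, which encodes Flk2, and Cd34 were also read, at 775 and 861 CPM in carnosine and 818 and 857 CPM in saline, although the gate selects cells without these proteins. Summed plasma cell markers (9 of 9 above 0 in every library) were at 1557 to 1843 CPM in carnosine and 799.8 to 875 CPM in saline. This sum followed the immunoglobulin genes Igkc (901 CPM in carnosine, 276 CPM in saline) and Jchain (456 CPM in carnosine, 136 CPM in saline), and of 8 tested 5 rose and 2, Ighm and the surface marker Sdc1, fell. Erythroid markers (9 of 9) summed to 158 to 162 CPM in carnosine and 61.4 to 74.6 CPM in saline, with 5 of 9 higher, 4 of them globin genes. The stromal sum (6 of 10; 379.9 to 398 CPM in carnosine, 346 to 361 CPM in saline) was mostly Runx2 (297 CPM in carnosine, 267 CPM in saline), which did not pass, and Cxcl12 was the 1 of 5 tested that rose (4.74 CPM in carnosine, 2.36 CPM in saline). Multipotent progenitor markers (7 of 7) summed to 2452 to 2486 CPM in carnosine and 2823 to 2824 CPM in saline, and 4 of 7, Mpo, Ctsg, Cebpa and Dntt, fell. The neutrophil sum (6 of 10; 108 to 124 CPM in carnosine, 142 to 164 CPM in saline) was mostly the granule genes Prtn3 (87.2 CPM in carnosine, 112 CPM in saline, not called) and Elane (22.1 CPM in carnosine, 33.9 CPM in saline), the 1 of 5 tested that fell, while the median log2 fold change of the list was 0.14. Monocyte and macrophage markers (9 of 9) summed to 168 to 186 CPM in carnosine and 198 to 212 CPM in saline, and Csf1r was the 1 of 7 tested that fell. The summed levels of the endothelial, T cell, B cell, megakaryocyte and mast cell lists overlapped between the groups. The mast cell and basophil sum was mostly Gata2 (122 CPM in carnosine, 126 CPM in saline, not called). Of the 4 tested on that list 0 rose and 2 fell, Prss34 (4.48 CPM in carnosine, 14.2 CPM in saline) and Mcpt8 (3.43 CPM in carnosine, 7.07 CPM in saline). Of 7 B cell markers tested 0 rose and 2 fell, and of 5 megakaryocyte markers tested 1 rose and 1 fell. Bglap of the stromal list was the 1 marker of all lists at 0 in every library. In bulk RNA, fewer cells of a type and less RNA per cell cannot be told apart, and the part of these cell types in the results was not tested.

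In LT-HSCs of carnosine-treated mice, 3 of the 10 genes rose and 1 fell. The Wnt and Norrin receptor Fzd4 rose 2.59-fold, the co-receptor Lrp5 rose 1.34-fold and the nuclear factor Tcf7 rose 1.504-fold, and its relative Lef1 fell to 0.401 of its level in saline. The other 6 genes did not pass the test, among them beta-catenin itself and Axin2. Differences were tested with edgeR's quasi-likelihood F test on the counts, two-sided, and called at a Benjamini-Hochberg adjusted p under 0.05 over all 15298 genes tested. The same test called 17.9% of all genes tested, 9.51% higher and 8.39% lower in carnosine. The median log2 fold change (carnosine over saline, as throughout) was 0.31 over the 10 members and 0.0009 over all genes tested. The CPM values of the groups did not overlap for 6 members higher and 1 lower in carnosine, against 19.7% and 19.0% of all genes tested, 38.7% in either direction, so separation of 3 against 3 libraries was common in these data. Fzd4 and Lef1 were called with a log2 fold change of at least 1 in size, as were 2.05% of all genes tested.

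**Figure D1:**
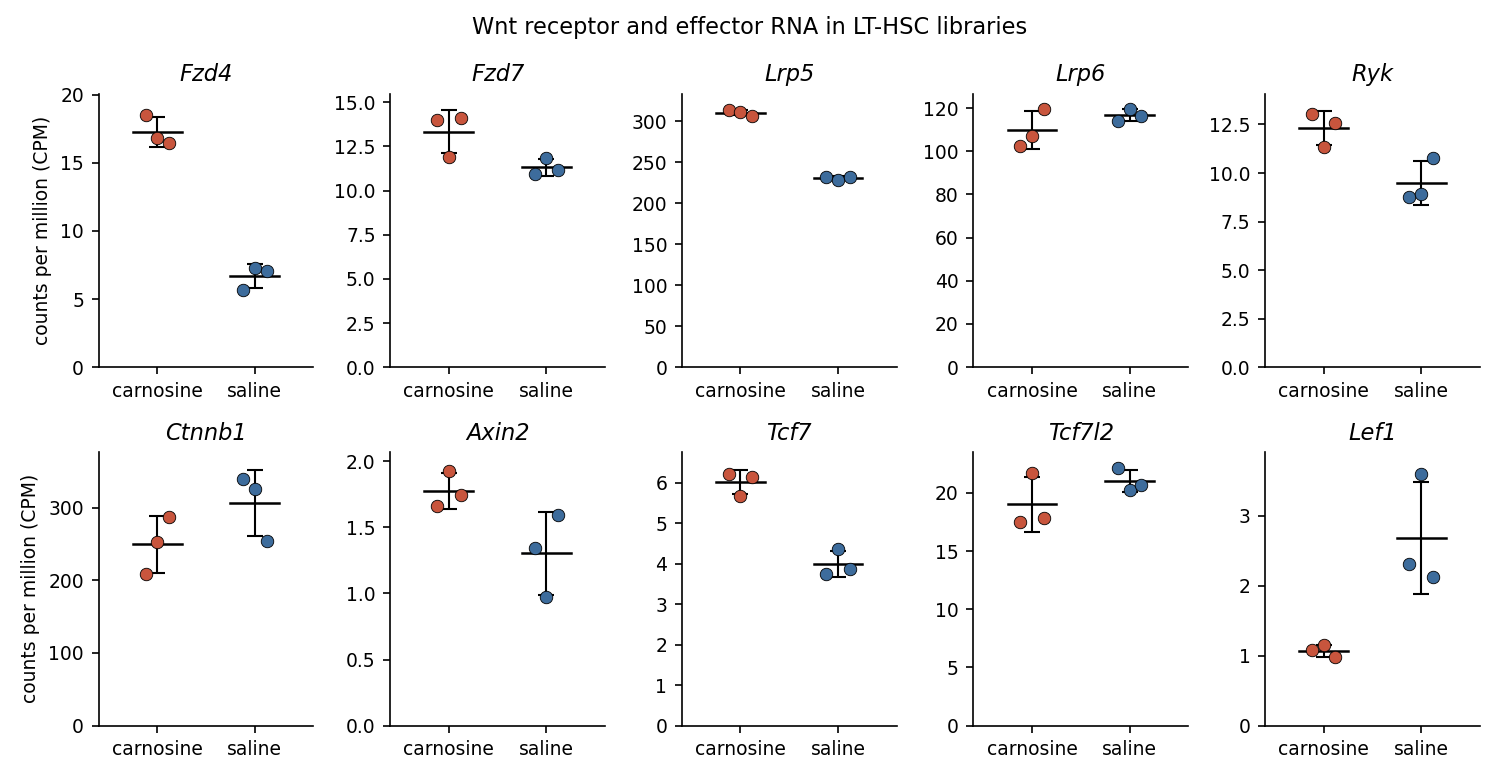
CPM (y axis, from 0, a scale for each gene) of the 10 members in each carnosine library (red points, left) and saline library (blue points, right), with the group mean as a line and 1 SD as the error bar (n = 3 each). The 3 carnosine points lie above all saline points for Fzd4, Fzd7, Lrp5, Ryk, Axin2 and Tcf7 and below them for Lef1.

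Fzd4 (ENSMUSG00000049791, GRCm38 chromosome 7, 89404355 to 89413134, plus strand, 1 annotated transcript) encodes Frizzled-4, a seven-pass receptor that also binds Norrin. It had 18.5, 16.8 and 16.4 CPM in the carnosine libraries, against 5.68, 7.28 and 7.05 CPM in the saline libraries. Every carnosine library was more than 2 times as high as any saline library. The raw counts behind these levels were 223, 175 and 217 in carnosine and 59, 75 and 93 in saline. On the log2 scale the rise was 1.37 (SE 0.12), with an edgeR adjusted p of 0.000369, and it stayed between 1.27 and 1.43 in the other settings that used counts. A called rise at least this large was rare, with 138 of the 15298 genes tested, 0.902%.

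Because Fzd4 is also a gene of blood vessel cells, the endothelial list was read beside it. Its summed level was 284 to 290 CPM in carnosine and 286 to 301 CPM in saline, and 11 of its 12 markers were above 0 in every library. Pecam1 and Egfl7 made up most of this sum, and the median log2 fold change of the 11 tested was 0.17, with 1 higher and 1 lower. Cdh5, the cadherin that defines endothelial junctions, averaged 3.31 CPM in carnosine and 2.38 CPM in saline and did not pass (edgeR adjusted p = 0.377). Nor did Mmrn2 (1.75 CPM in carnosine, 0.935 CPM in saline), Tek (19.6 CPM in carnosine, 17.8 CPM in saline), Cldn5 (2.495 CPM in carnosine, 1.602 CPM in saline), Kdr (3.47 CPM in carnosine, 2.93 CPM in saline) or Plvap (5.42 CPM in carnosine, 4.804 CPM in saline), of which Mmrn2 and Tek had groups that did not overlap. Esam went the other way, with every carnosine library below every saline library, and did not pass (log2 fold change -0.28, edgeR adjusted p = 0.131). Emcn was level (19.84 CPM in carnosine, 19.86 CPM in saline). Stab2, a scavenger receptor of sinusoidal endothelium, rose by 0.95 on the log2 scale (9.28 CPM in carnosine, 4.78 CPM in saline, edgeR adjusted p = 0.00731), and Pecam1, which blood cells also carry, fell by 0.19. The part of endothelial RNA in the rise of Fzd4 was not tested.

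Fzd7 (ENSMUSG00000041075, chromosome 1, 59482424 to 59486955) encodes a Frizzled that is known from pluripotent and epithelial stem cells. Its level was 14.0, 11.9 and 14.1 CPM in carnosine, against 10.97, 11.8 and 11.1 CPM in saline. The lowest carnosine library lay just above the highest saline library. The log2 fold change of 0.24 (SE 0.10) did not pass (edgeR adjusted p = 0.143).

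The 2 Frizzleds were then set beside the rest of the family on the FPKM scale, which divides by gene length. Summed over the 10 Frizzled genes, the level was 20.8, 21.5 and 21.7 FPKM in carnosine and 16.2, 16.9 and 15.9 FPKM in saline, with no overlap. Fzd8 was the most abundant, at 4.80 ± 0.419 FPKM in carnosine and 3.84 ± 0.390 FPKM in saline (SD, n = 3 each), and its difference did not pass (log2 fold change 0.33, edgeR adjusted p = 0.0616). Fzd9 (log2 fold change 0.59, edgeR adjusted p = 0.0208) and Fzd6 (0.29, adjusted p = 0.0230) rose. Both of these calls were lost without 1 library, Fzd6 whichever was left out (adjusted p 0.0519 to 0.0698) and Fzd9 for any but carnosine replicate 1 (adjusted p 0.0547 to 0.0663). Fzd1, Fzd3 and Fzd5 did not pass (adjusted p = 0.751, 0.691 and 0.972), and Fzd2 and Fzd10 had too few counts to be tested. Fzd4 supplied 13.2, 11.6 and 11.2% of the Frizzled FPKM in carnosine and 5.22, 6.41 and 6.58% in saline. This is a difference of 5.94 percentage points (exact permutation test over libraries, two-sided, p = 0.1, which is the smallest value that 3 against 3 can give). The share of Fzd7 was 13.8 ± 1.40% in carnosine and 15.3 ± 0.291% in saline (SD, n = 3 each). In saline Fzd4 was the sixth Frizzled by mean FPKM and in carnosine the fifth, above Fzd5.

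**Figure D2:**
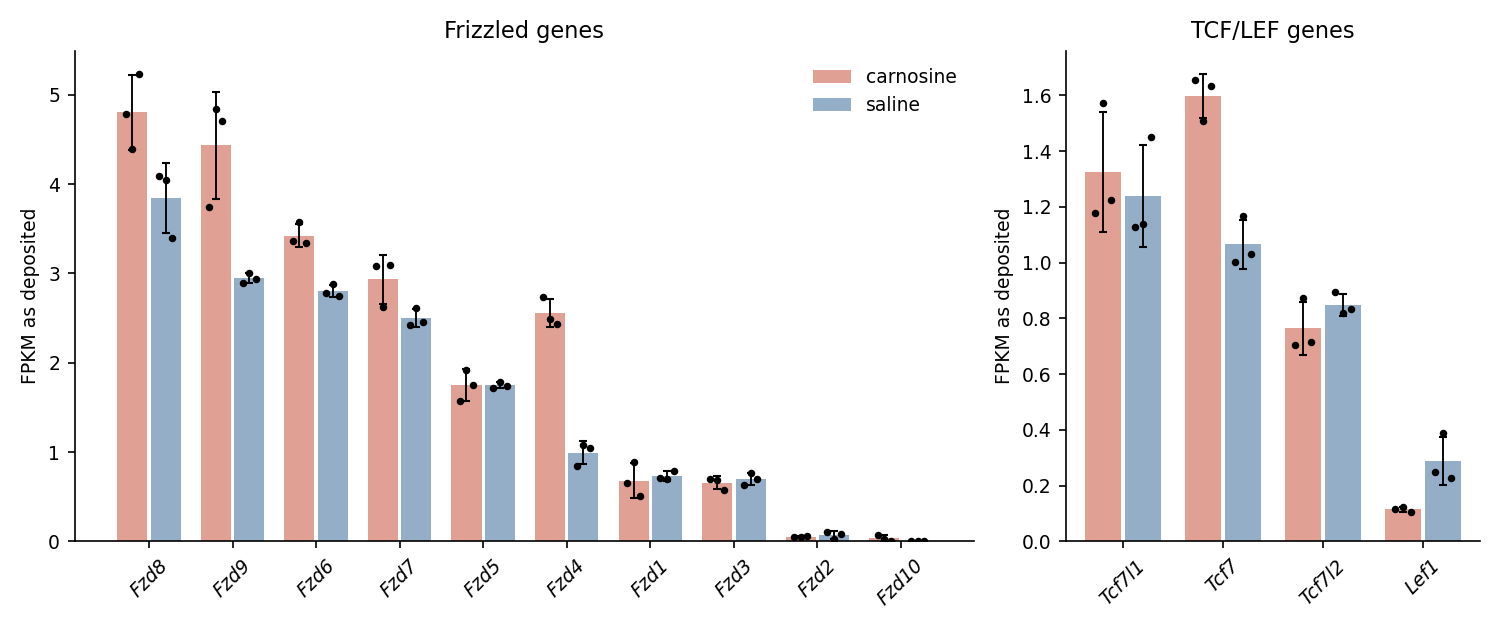
Deposited FPKM (y axes, from 0) of the 10 Frizzled genes (left panel) and the 4 TCF/LEF genes (right panel), each with carnosine (red bars, left of each pair) and saline (blue bars); bars are means, error bars 1 SD and points the 3 libraries of each group. Fzd4 stands at 2.56 FPKM in carnosine and 0.992 FPKM in saline, and Lef1 at 0.116 FPKM in carnosine and 0.289 FPKM in saline.

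Lrp5 (ENSMUSG00000024913, chromosome 19, 3584828 to 3686564, minus strand) and Lrp6 (ENSMUSG00000030201, chromosome 6, 134446476 to 134566965, minus strand) encode the paired co-receptors that carry the Wnt signal to AXIN. Lrp5 had 314, 311 and 307 CPM in carnosine, against 233, 229 and 232 CPM in saline. The libraries of each group lay close together and the groups were far apart. This is a rise of 0.43 on the log2 scale (SE 0.03, edgeR adjusted p = 5.44e-05). Lrp6 had 103, 107 and 119.5 CPM in carnosine, against 114, 119.7 and 116 CPM in saline. These groups overlapped, and the log2 fold change of -0.09 (SE 0.06) did not pass (edgeR adjusted p = 0.350). Per length, Lrp5 made up 80.0, 79.2 and 77.0% of the FPKM of both co-receptors in carnosine and 72.7, 71.4 and 72.2% in saline (exact permutation test, two-sided, p = 0.1, again the smallest possible). Ryk (ENSMUSG00000032547, chromosome 9, 102834917 to 102908305), a receptor with a WIF domain and a kinase-like domain that binds Wnt5a, had 13.02, 11.3 and 12.6 CPM in carnosine and 8.75, 8.93 and 10.8 CPM in saline. The groups did not overlap, but the log2 fold change of 0.37 (SE 0.12) did not pass (edgeR adjusted p = 0.0675).

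Ctnnb1 (ENSMUSG00000006932, chromosome 9, 120929216 to 120960507), the gene of beta-catenin, carries the signal from the membrane to the nucleus and also anchors cadherins. Its levels were 208, 252 and 287 CPM in carnosine and 339, 325 and 254 CPM in saline. The groups overlapped through carnosine replicate 3 and saline replicate 3, and the log2 fold change of -0.29 (SE 0.14) did not pass (edgeR adjusted p = 0.185). Ulk4 lies over Ctnnb1 exons on the opposite strand and had 15 to 44 counts per library, against 2509 to 3792 for Ctnnb1 (the kit marks strand, but the strand setting of the counting is not given). Axin2 (ENSMUSG00000000142, chromosome 11, 108920349 to 108950783), which restrains the pathway as a scaffold of the destruction complex and is itself switched on by beta-catenin, was read at 20, 20 and 23 counts in carnosine and 14, 10 and 21 in saline. On the CPM scale this was 1.66, 1.92 and 1.74 in carnosine and 1.35, 0.971 and 1.59 in saline. The groups lay just apart and the log2 fold change of 0.42 (SE 0.24) did not pass (edgeR adjusted p = 0.297). At this depth a log2 fold change close to that of Lrp5 did not pass for Axin2.

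The 3 nuclear members bind DNA through the same type of HMG box. Tcf7 (ENSMUSG00000000782, chromosome 11, 52252371 to 52283331, minus strand) had 6.22, 5.67 and 6.14 CPM in carnosine, against 3.75, 4.37 and 3.87 CPM in saline. All carnosine libraries lay above all saline libraries, 0.59 higher on the log2 scale (SE 0.13; edgeR adjusted p = 0.0217). This call was lost with DESeq2 (adjusted p = 0.141), and with edgeR when carnosine replicate 1 (adjusted p = 0.0655) or 3 (0.0643) or saline replicate 1 (0.0651) or 3 (0.0700) was left out. Lef1 (ENSMUSG00000027985, chromosome 3, 131110471 to 131224356) was read at only 13, 12 and 13 counts in carnosine and 24, 37 and 28 in saline. Its CPM values were 1.08, 1.15 and 0.985 in carnosine and 2.31, 3.59 and 2.12 in saline. Each carnosine library was below every saline library, and saline replicate 2 was the highest. Lef1 fell by 1.30 on the log2 scale (SE 0.28, edgeR adjusted p = 0.0182), a call lost without carnosine replicate 1 (adjusted p = 0.0579) or 3 (0.0644). Tcf7l2 (ENSMUSG00000024985, chromosome 19, 55741820 to 55933654) had 17.5, 21.7 and 17.8 CPM in carnosine and 22.1, 20.3 and 20.7 CPM in saline. Its groups overlapped and the log2 fold change of -0.15 (SE 0.10) did not pass (edgeR adjusted p = 0.351).

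Since Tcf7 and Lef1 are genes of lymphocytes, lymphocyte markers are given beside them. The T cell and innate lymphoid list (10 of 12 markers above 0 in every library) summed to 52.3 to 57.4 CPM in carnosine and 50.3 to 60.2 CPM in saline, and the T cell receptor subunits Cd3e, Cd3d and Cd3g were each under 1 CPM on average in both groups. Of its 9 markers tested, Cd4 fell (6.55 CPM in carnosine, 8.84 CPM in saline, log2 fold change -0.43, edgeR adjusted p = 0.0462). Thy1 (14.9 CPM in carnosine, 11.9 CPM in saline) and Trbc1 (2.05 CPM in carnosine, 1.48 CPM in saline) did not pass, though their groups did not overlap. The B cell list (8 of 9 above 0 in every library) summed to 44.1 to 49.4 CPM in carnosine and 45.9 to 53.8 CPM in saline. Within it Ebf1, an early B cell factor, fell by 0.82 on the log2 scale (edgeR adjusted p = 0.0420). Gm43352, antisense to Lef1, had 0 to 4 counts in carnosine and 3 to 5 in saline. Gm26551, a noncoding gene over Tcf7 exons on the same strand, was not found among the deposited genes by its GENCODE M21 identifier. Whether reads from it entered the Tcf7 counts was not tested. The part of lymphocytes in the results for Tcf7 and Lef1 was not tested. Among the 4 TCF/LEF genes, Tcf7 took 42.2 ± 4.55% of the summed FPKM in carnosine and 31.0 ± 2.09% in saline, and Lef1 took 3.04 ± 0.148% in carnosine and 8.38 ± 2.39% in saline (SD, n = 3 each). For both, the exact permutation test, two-sided, gave p = 0.1, the smallest possible. The share of Tcf7l2 was 20.1 ± 1.19% in carnosine and 24.7 ± 2.23% in saline by FPKM. These shares depend on gene length, since the length behind the deposited FPKM of Tcf7l2 is 24767 bases and its GENCODE M21 exons cover 8775. With counts divided by the GENCODE exon length, Tcf7l2 took 34.2 ± 1.77% in carnosine and 41.1 ± 2.83% in saline. On the same scale Tcf7 took 36.5 ± 4.19% in carnosine and 26.1 ± 1.998% in saline, and Lef1 took 1.93 ± 0.0964% in carnosine and 5.21 ± 1.54% in saline.

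**Figure D3:**
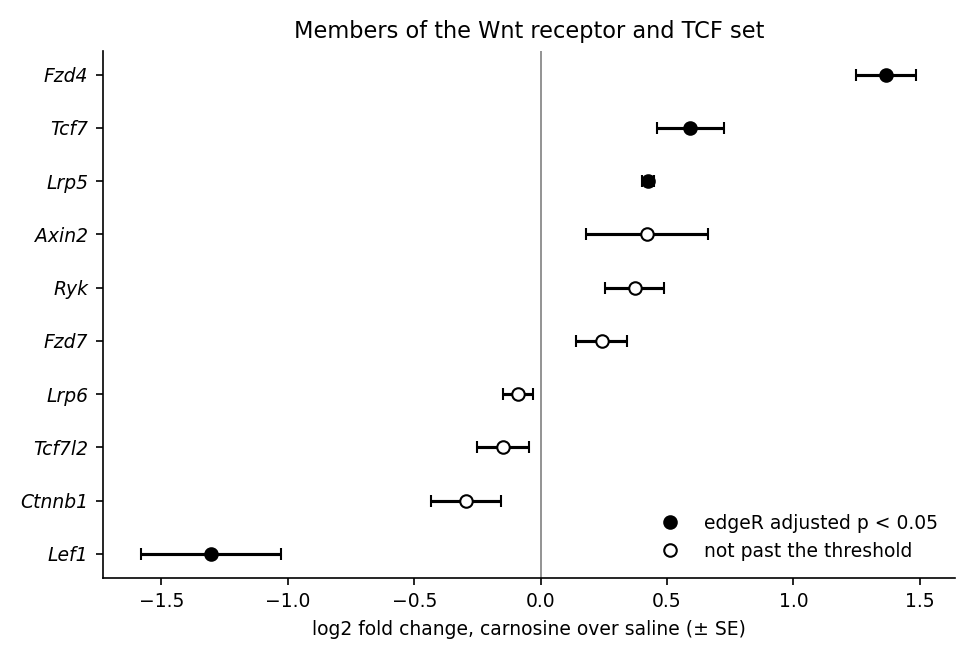
Log2 fold change of each member, carnosine over saline (x axis), with 1 SE as the error bar; filled points passed the edgeR test and open points did not. Fzd4, Tcf7 and Lrp5 lie at 1.37, 0.59 and 0.43 and Lef1 at -1.30.

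Ordered by mean FPKM, the carnosine libraries gave Lrp5 (25.9), Ctnnb1 (21.4), Lrp6 (7.00), Fzd7 (2.93), Fzd4 (2.56), Ryk (1.67), Tcf7 (1.598), Tcf7l2 (0.764), Axin2 (0.206) and Lef1 (0.116). The saline libraries gave Ctnnb1 (26.4), Lrp5 (19.4), Lrp6 (7.48), Fzd7 (2.50), Ryk (1.29), Tcf7 (1.07), Fzd4 (0.992), Tcf7l2 (0.849), Lef1 (0.289) and Axin2 (0.152). In carnosine, the ranges of Fzd7 and Fzd4 and those of Ryk and Tcf7 overlapped. In saline, those of Tcf7 and Fzd4 and those of Fzd4 and Tcf7l2 did. All other neighbours in each order lay apart. These orders depend on the lengths used for the FPKM, which for Ctnnb1 is 11578 bases where its GENCODE M21 exons cover 5192. Per 1000 GENCODE exon bases, a scale added after seeing the data, Ctnnb1 came first in both groups, at 48.0 ± 7.66 CPM in carnosine and 58.9 ± 8.76 CPM in saline (SD, n = 3 each). Lrp5 was then second, at 31.9 ± 0.337 CPM in carnosine and 23.7 ± 0.196 CPM in saline. By mean, Fzd4 came sixth of the 10 in carnosine and eighth in saline on that scale, with Ryk above it in both groups. In carnosine, though, the range of Ryk (2.50 to 2.87) overlapped those of Fzd4 (2.45 to 2.75) and Fzd7.

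The genes whose log2 CPM followed the called members most closely over the 6 libraries were sought among 11253 genes. For Fzd4 they were the aldehyde dehydrogenase Aldh1a1, the actin-binding Coro2a and the G protein subunit Gna12 (Pearson r 0.9988, 0.998 and 0.998), with log2 fold changes of 0.62, 0.37 and 0.09. Lrp5 was followed by the acetyltransferase Naa50, the polymerase subunit Pola1 and the RNA-binding Khdrbs1 (0.9997, 0.9994 and 0.9993). The closest to Tcf7 were the chaperonin subunit Cct4, the nucleolar Nol7 and the Rac activator Dock1 (0.9984, 0.9972 and 0.9965), and the closest to Lef1 were Cebpg, Pafah2 and Fbxl12 (0.9973, 0.9944 and 0.9937). These values are a description: with 3 libraries in each of 2 groups, genes whose groups lie apart can reach a high r.

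Of 155 other Wnt pathway genes, 102 were tested. With edgeR 9 rose and 14 fell, 23 in all, where 17.9% of all genes tested were called, and their median log2 fold change was -0.05. Among 19 genes of Wnt ligands, Wnt10b was the 1 with enough counts to be tested. It had 5.47, 6.54 and 5.08 CPM in carnosine, against 2.598, 3.11 and 3.11 CPM in saline, and rose by 0.94 on the log2 scale (SE 0.17, edgeR adjusted p = 0.00871). The groups lay well apart, and the call held without any 1 library. Of the other Wnt genes, 5 had no count in any library, which allows up to 0.226 to 0.291 CPM per library for counting error alone, and 13 had 1 to 50 counts over all 6 libraries. Wls, which escorts Wnt proteins to the cell surface, was at 7.40 ± 0.367 FPKM in carnosine and 7.36 ± 0.483 FPKM in saline (SD, n = 3 each).

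Among receptors outside the member list, 2 of 11 tested rose, Fzd9 and Fzd6, where 9.51% of all genes tested did. The R-spondin receptor Lgr4 fell (log2 fold change -0.62, edgeR adjusted p = 0.0273), where 8.39% of all genes tested did. Ptk7, a co-receptor of the polarity branch, was the most abundant, at 12.6 ± 1.34 FPKM in carnosine and 11.6 ± 0.711 FPKM in saline (SD, n = 3 each). The 4 extracellular and membrane inhibitors tested did not pass with edgeR (adjusted p 0.221 to 0.702, and 0 of the 4 at an unadjusted p under 0.05) and 0 passed with DESeq2 or limma, although 1 of them, Znrf3, passed with edgeR without carnosine replicate 1. Kremen1, a receptor for the DKK inhibitors, was the most abundant of them at 4.603 FPKM in carnosine and 4.78 FPKM in saline.

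Among 27 cytoplasmic transducers tested, 2 rose and 3 fell, 5 in all, a share close to the 17.9% called over all genes tested. Gsk3b, a kinase that marks beta-catenin for destruction, had 53.9, 53.7 and 58.4 CPM in carnosine, against 121, 96.1 and 80.2 CPM in saline (log2 fold change -0.84, SE 0.14, edgeR adjusted p = 0.00655). All carnosine libraries were lower, and the saline libraries were spread widely. The casein kinase Csnk1g3, which phosphorylates LRP6, rose (0.59, adjusted p = 0.00153), and Tnks2, a tankyrase that turns over AXIN, also rose (0.19). The casein kinases Csnk1d (-0.13) and Csnk1e (-0.13) fell. Frat2, which binds GSK3, was the most abundant transducer, at 45.7 FPKM in carnosine and 47.9 FPKM in saline.

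Among 23 nuclear partners tested, 2 rose and 5 fell. For these and the 2 lists that follow, the shares over all genes tested were 9.51% higher and 8.39% lower. The Groucho co-repressors Tle3 (-0.33, edgeR adjusted p = 0.00476) and Tle2 (-0.30, adjusted p = 0.0156) fell, as did the acetyltransferases Ep300 (-0.23) and Crebbp (-0.21) and the beta-catenin adaptor Bcl9l (-0.17). The remodelling ATPase Smarca4, the most abundant of them, rose by 0.11 and Tbl1x, a beta-catenin cofactor, by 0.19. Of 12 textbook targets tested, the cyclin gene Ccnd1 (0.29) rose, and Jun (-0.90), Vegfa (-0.27) and Myc (-0.22) fell. Each of these targets also answers to other pathways. In the polarity and calcium branch, with 22 tested, the GTPase Rhoa (0.14) rose and Prickle3 (-0.43) and the calcium-regulated factor Nfatc2 (-0.25) fell.

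Of the 23 calls among the other pathway genes, 10 held when any 1 library was left out, namely Wnt10b, Gsk3b, Csnk1g3, Tle3, Crebbp, Ep300, Tbl1x, Jun, Prickle3 and Rhoa. The other 13 calls were each lost without at least 1 library, and the counts then ranged from 4 to 6 higher and from 6 to 12 lower.

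**Figure D4:**
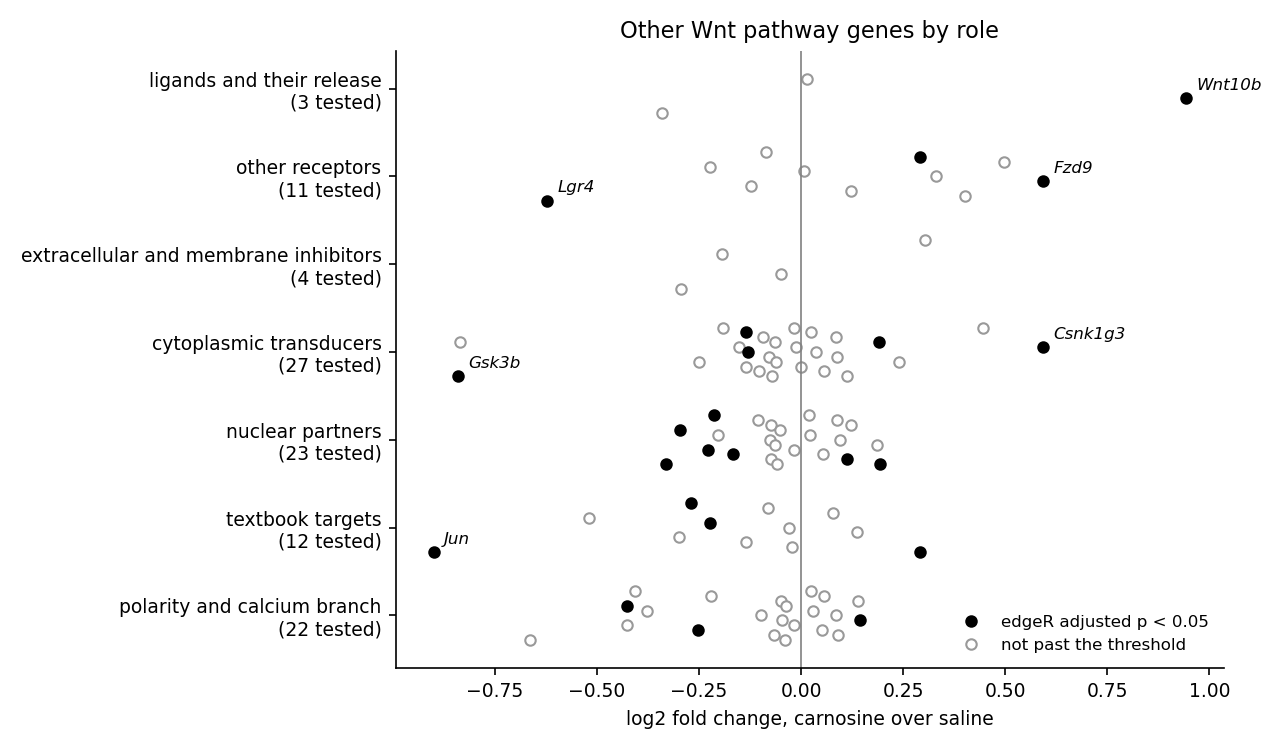
Log2 fold change, carnosine over saline (x axis), of the 102 other Wnt pathway genes tested, in rows by role (vertical scatter within a row has no meaning); filled points passed the edgeR test and open points did not. Wnt10b lies farthest to the right at 0.94 and Jun farthest to the left at -0.90.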

How the data were processed

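The authors' table holds, per the file headers, a count column and an FPKM column for each library. Per the submitters' processing notes, CASAVA 1.8, HISAT2, StringTie, edgeR and build GRCm38 were used; versions of the last 3 tools, the strand setting, the annotation release and the treatment of multiply mapped reads were not found in these sources. Per the labels' protocols, poly-A RNA with an integrity number above 7.0 went into stranded paired-end libraries.

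Library sizes were adjusted with TMM factors, genes were filtered with filterByExpr, which kept 15298 genes, all 10 members among them, and tested with edgeR 4.0.16 in R 4.3.3 (quasi-likelihood F test, no block). SE is the log2 fold change divided by the square root of F. Levels between genes use the deposited FPKM, as counts per base and library total. The fit was tested on simulated data. Alternatives were DESeq2 1.42.0, limma-voom and limma-trend on log2(FPKM + 1) and log2(FPKM + 0.1) (limma 3.58.1), 3 other scalings, 2 other filters, a replicate block and leaving out each library.

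The members and lists were chosen with earlier results of these data known. Other pathway genes named are those past the threshold and the most abundant of each role; the 3 genes most like each called member were those with the highest Pearson r over log2 CPM (prior count 2), at an average log2 CPM of at least 1, without predicted genes, pseudogenes and immunoglobulin segments. Of 156 other pathway genes listed, 155 matched a row. Promoter stretches are from RefSeq, build GRCm38.p6; gene structures are from GENCODE M21. Limits and floors of 3 counts cover counting error only, since no molecular identifiers are described. Libraries of a group differed beyond sampling noise (chi-square per degree of freedom 5.08 to 6.26), so none was taken as a duplicate.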

Additional observations from a re-analysis of the deposited data

How the results depend on the processing

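Fzd4, called higher, and Lrp5, called higher, kept direction and call under all 16 alternatives, and no member changed direction in any. Over all genes tested, 1455 were higher and 1283 lower in carnosine, against 773 and 775 with DESeq2 and 932 to 1009 and 801 to 883 when 1 library was left out. Members lower in carnosine numbered 1, against 0 for log2(FPKM + 1) and 0 to 1 without 1 library. On the log2(FPKM + 1) scale Lef1 differed by -0.21 (limma adjusted p = 0.0527). Members higher numbered 3, or 2 to 3 without 1 library, and Tcf7 also lost its call with DESeq2 (adjusted p = 0.141) and with the replicate block. Other pathway genes numbered 9 higher, against 3 with DESeq2 and 4 to 6 without 1 library. Those lower numbered 14, against 8 with DESeq2, 9 with no filter and 6 to 12 without 1 library. The alternatives for other pathway genes one by one were chosen after seeing the data. The cause of these shifts was not tested, and leaving out 1 library also made the number of libraries smaller.

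The libraries share only a replicate number. With that number as a replicate block, 946 genes were higher and 810 lower, and Tcf7 missed the threshold (edgeR adjusted p = 0.0677). Deviations of same-numbered libraries from their group means correlated at -0.05, -0.07 and 0.02, and 2 of 6 libraries correlated best with their own number. Depth limits Axin2 and Lef1 most, with 10 to 37 counts per library.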

Other observations

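Ctnnb1 varied within both groups more than genes of like abundance. Its SD was 16.0% of the mean in carnosine and 14.9% in saline, against medians of 2.33% and 2.50% over the 683 other tested genes within 0.5 of its average log2 CPM. Lrp5, of similar abundance, varied by 1.06% in carnosine and 0.825% in saline. Lrp6 varied by 8.03% in carnosine and 2.51% in saline, against medians of 3.38% and 3.51% for genes of like abundance. This description was chosen after the values were seen.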
